A study of Homo sapiens with 3 samples.

Results

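Keratin genes were examined in RNA sequencing libraries of Cal-33 cells, an established carcinoma line from the human tongue. They were taken as every listed gene whose symbol is KRT followed by 1 to 3 digits and an optional letter A, B or C, which leaves out pseudogenes and keratin-associated proteins. The rule took 55 of 28890 listed genes, 29 of type I and 26 of type II. Each of 3 libraries came from cells 72 h after transfection of 1 siRNA, against BACH1 (siBACH1), against p53 (sip53) or a control (siControl). The cells of every library are labelled wild type and were grown alike, with 1 library per group, so no difference below has a replicate error or a test, and all values describe these libraries. In bulk RNA, fewer cells of a type and less RNA per cell cannot be told apart.

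Keratins are the intermediate filament proteins of epithelial cells. A filament is built from pairs of a type I and a type II chain, so partners are usually made together. Basal cells of stratified epithelia make KRT5 with KRT14, suprabasal cells of the moist oral and oesophageal mucosa make KRT4 with KRT13, cornifying epidermis makes KRT1 with KRT10, and simple epithelia make KRT8 with KRT18. KRT6 with KRT16 or KRT17 marks activated keratinocytes, wound edges and many squamous carcinomas. BACH1 is a transcription factor that represses heme and antioxidant genes, and p53 is a transcription factor that acts on DNA damage.

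The markers of stratified squamous epithelium were present, and KRT5, KRT13, KRT4 and KRT14 were each at 100.1 TPM or more in every library. TPM is a measure of transcript abundance scaled by transcript length and library total, so levels of different genes can be set side by side. BACH1 was at 4.30 TPM in siBACH1, 19.6 TPM in sip53 and 15.2 TPM in siControl, and HMOX1, the heme oxygenase gene that BACH1 represses, was at 785 TPM in siBACH1, 4.82 TPM in sip53 and 4.10 TPM in siControl. Of 10 fibroblast markers, 1 reached a mean of 1 TPM (COL1A1), THY1 and POSTN were listed at 0, and the list summed to between 4.18 and 5.32 TPM in every library. The 12 immune and endothelial markers summed to between 53.1 and 61.4 TPM, most of it from CD68 and CDH5, and KDR was listed at 0. Mitochondrially encoded genes took 27.6% of TPM in siBACH1, 28.6% in sip53 and 24.2% in siControl.

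Of the 55 keratins, 17 had a mean of at least 1 TPM over the 3 libraries and are called measured here. Another 29 were above 0 with a mean under 1 TPM, and 9 were listed at 0 in every library. The 17 measured keratins comprised 8 of type I and 9 of type II. Summed over all 55, keratins held 12008 TPM in siBACH1, 17701 TPM in sip53 and 18468 TPM in siControl, which was 1.20% of the full TPM scale of a library in siBACH1, 1.77% in sip53 and 1.85% in siControl. Basal, activation and mucosal suprabasal keratins together made up 94.1% of the keratin sum in siBACH1, 95.7% in sip53 and 96.2% in siControl.

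KRT15, a basal type I keratin, was the highest keratin in every library, ranking 17th in siBACH1, 13th in sip53 and 11th in siControl among all listed genes. KRT5, the basal type II keratin, ranked 21st in siBACH1, 17th in sip53 and 18th in siControl. KRT13, the mucosal suprabasal type I keratin, ranked 34th in siBACH1, 20th in sip53 and 19th in siControl. The line thus carried KRT15, KRT5 and KRT13 as its leading keratins, with KRT14, the usual type I partner of KRT5, at a far lower level.

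**Figure D1:**
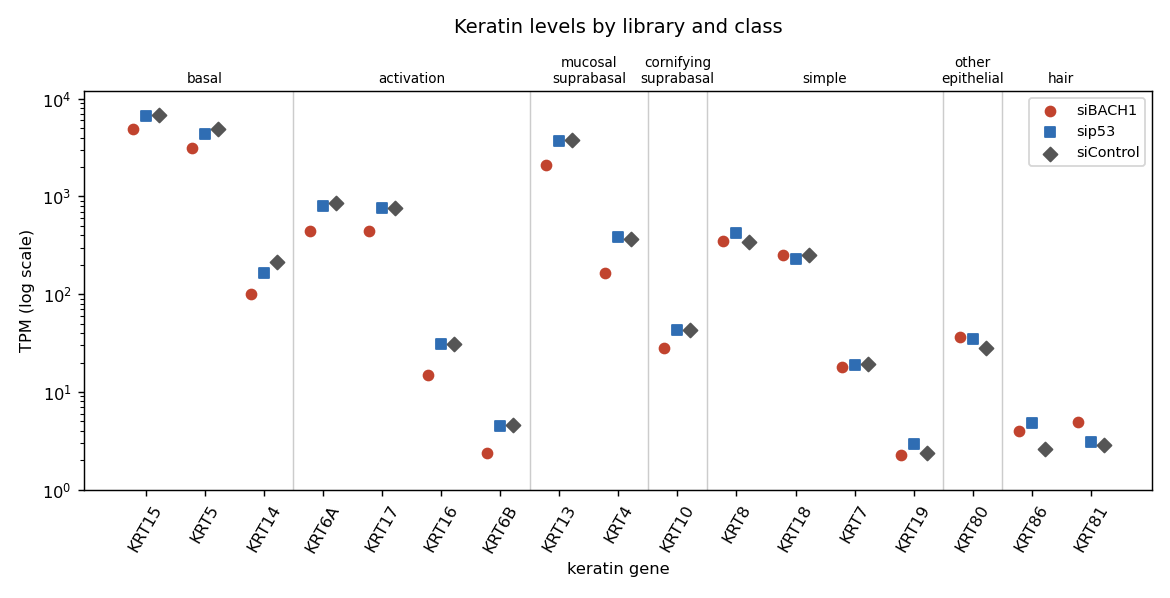
Level of each of the 17 measured keratins (vertical axis, TPM on a log scale) in siBACH1 (circles), sip53 (squares) and siControl (diamonds), 1 library each, grouped by class along the horizontal axis. In the basal, activation and suprabasal classes the siBACH1 point lies below the sip53 and siControl points, whereas in the simple class the 3 points lie close together.

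Knockdown of BACH1 was set against the control siRNA to ask which keratins differ when this repressor is lowered. Of the 10 measured basal, activation and suprabasal keratins, all but KRT15 were at least 1.5-fold lower, and of the 4 simple-epithelial keratins 0 were. With differences taken as log2((TPM + 1)/(TPM + 1)), 9 of the 17 measured keratins were at least 1.5-fold lower in siBACH1, where 3.2% of all 12148 measured genes were, and 1 was at least 1.5-fold higher, where 1.24% of all measured genes were. The 9 lower keratins were KRT4, KRT14, KRT16, KRT6A, KRT13, KRT17, KRT6B, KRT5 and KRT10, and the higher one was KRT81. At 2-fold, 3 of the 17 were lower (KRT4, KRT14 and KRT16), where 0.601% of all measured genes were. The median over the measured keratins was -0.60, against -0.08 over all measured genes. Without mitochondrially encoded and ribosomal protein genes, 7 keratins were at least 1.5-fold lower. After TPM were rescaled to a median ratio of 1 between the libraries, 7 of the 9 stayed past 1.5-fold, and KRT5 at -0.57 and KRT10 at -0.52 did not.

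**Figure D2:**
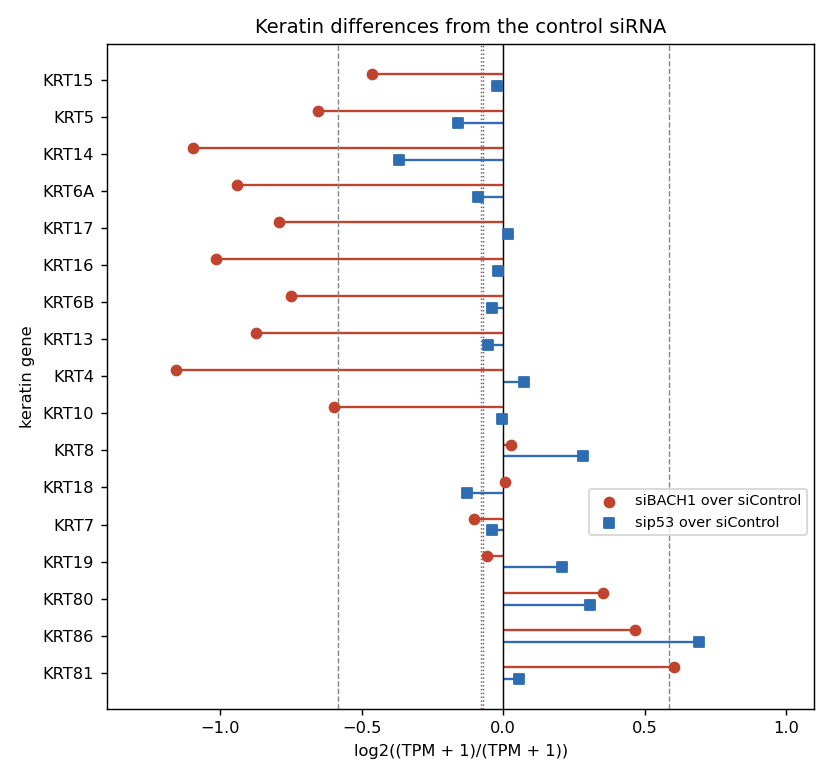
Log2 difference from siControl (horizontal axis) of each measured keratin in siBACH1 (circles) and sip53 (squares), with classes in the same order as above. Dashed lines mark 1.5-fold and dotted lines the median of all measured genes. The 10 keratins from KRT15 to KRT10 lie left of 0 in siBACH1, from -0.46 to -1.15, whereas the sip53 values of the same genes lie between -0.37 and 0.07.

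Among basal keratins, KRT5 was at 3101 TPM in siBACH1, 4375 TPM in sip53 and 4883 TPM in siControl. KRT14 was at 100.1 TPM in siBACH1, 166 TPM in sip53 and 215 TPM in siControl. KRT15 was at 4947 TPM in siBACH1, 6716 TPM in sip53 and 6823 TPM in siControl. All 3 were lowest in siBACH1, but to unequal extents. The siBACH1 level was lower than the siControl level by 2.15-fold for KRT14, 1.57-fold for KRT5 and 1.38-fold for KRT15, so KRT15 did not reach 1.5-fold. KRT14 was also the lowest keratin relative to the control in sip53, with a log2 difference of -0.37.

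Among mucosal suprabasal keratins, KRT4 was at 166 TPM in siBACH1, 389 TPM in sip53 and 370 TPM in siControl. Its partner KRT13 was at 2087 TPM in siBACH1, 3679 TPM in sip53 and 3821 TPM in siControl. Both partners were lowest in siBACH1 and nearly equal in the other libraries. Against siControl the siBACH1 level was 2.23-fold lower for KRT4 and 1.83-fold lower for KRT13, and the log2 difference of -1.15 for KRT4 was the lowest of all keratins. KRT78, a type II keratin of differentiating epithelium, stayed under 1 TPM in every library, and KRT76, of the hard palate and gingiva, was listed at 0.

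The promoters of KRT5 and KRT4 are shown because both genes were lower in siBACH1 and BACH1 is known to bind antioxidant response elements, and KRT10 as a lower keratin without that core. Each window runs from 250 bases before to 50 bases after the gene's start in RefSeq, GRCh38.p14, 5′ to 3′ on the gene's strand. Capitals mark the core of the antioxidant response element, TGACNNNGC, searched on both strands. The windows are chr12:52520345-52520644 (minus strand) for KRT5, chr12:52814067-52814366 (minus strand) for KRT4 and chr17:40822565-40822864 (minus strand) for KRT10.
KRT5: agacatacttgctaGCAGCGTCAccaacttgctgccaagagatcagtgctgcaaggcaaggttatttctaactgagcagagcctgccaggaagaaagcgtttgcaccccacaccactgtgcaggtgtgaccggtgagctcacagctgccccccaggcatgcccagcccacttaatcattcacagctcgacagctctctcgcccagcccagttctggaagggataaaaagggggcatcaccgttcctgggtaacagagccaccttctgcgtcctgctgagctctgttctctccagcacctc
KRT4: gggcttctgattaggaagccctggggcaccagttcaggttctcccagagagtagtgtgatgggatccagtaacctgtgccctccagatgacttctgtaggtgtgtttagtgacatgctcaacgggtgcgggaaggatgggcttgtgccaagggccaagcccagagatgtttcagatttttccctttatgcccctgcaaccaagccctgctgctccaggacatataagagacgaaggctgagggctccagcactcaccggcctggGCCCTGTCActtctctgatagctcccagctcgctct
KRT10: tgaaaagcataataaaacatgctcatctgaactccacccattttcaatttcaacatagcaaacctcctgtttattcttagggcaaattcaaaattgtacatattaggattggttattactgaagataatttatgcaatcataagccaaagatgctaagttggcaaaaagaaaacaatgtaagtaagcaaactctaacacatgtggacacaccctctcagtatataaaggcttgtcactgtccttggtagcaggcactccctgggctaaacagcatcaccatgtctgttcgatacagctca

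The core was present once in KRT5 and once in KRT4, and its letters were not in the KRT10 or KRT8 window. It was found in 9 of the 34 keratin promoters in the RefSeq table and in 13.6% of all 27305 promoters. Of the 17 measured keratins, 4 had a promoter there (KRT4, KRT5, KRT8 and KRT10), and most of the 34 were keratins under 1 TPM. The lower keratins KRT6A, KRT6B, KRT13, KRT14, KRT16 and KRT17 were therefore not searched, and the counts here do not cover them. The longer BACH1 and small MAF element was in 0 of the 34 and in 0.399% of all promoters, and the AP-1 element TGANTCA, which it contains, was in 0 of the 34 and in 7.76% of all promoters. A p53 half-site was matched in 8 of the 34, KRT5, KRT8 and KRT10 among them, and in 6.54% of all promoters. These matches describe letters and not binding, and whether BACH1 or p53 acts on these genes was not tested.

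Activation keratins were all lower in siBACH1. KRT6A, the main type II member, was at 447 TPM in siBACH1, 806 TPM in sip53 and 858 TPM in siControl. KRT17 was at 438 TPM in siBACH1, 768 TPM in sip53 and 758 TPM in siControl. KRT16 was at 14.9 TPM in siBACH1, 30.8 TPM in sip53 and 31.2 TPM in siControl. In each case the siBACH1 level stood apart from the other libraries, which were near each other. The siBACH1 level was lower than in siControl by 2.09-fold for KRT16, 1.92-fold for KRT6A and 1.73-fold for KRT17.

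KRT6A, KRT6B and KRT6C are near-identical copies, and the stretch where KRT6A and KRT6B differ most in their reading frame is shown because few such bases tell their reads apart. It spans bases 656 to 745 of a frame of 1695 bases in GENCODE 29 transcripts, with all 3 genes on the minus strand of chromosome 12, and capitals mark bases that differ from KRT6A.
KRT6A: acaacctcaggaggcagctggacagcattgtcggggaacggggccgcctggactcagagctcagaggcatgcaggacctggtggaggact
KRT6B: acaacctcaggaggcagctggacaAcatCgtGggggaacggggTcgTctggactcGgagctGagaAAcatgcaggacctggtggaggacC
KRT6C: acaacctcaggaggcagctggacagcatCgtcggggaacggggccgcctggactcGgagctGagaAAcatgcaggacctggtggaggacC

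Over the whole frame KRT6B was 97.5% and KRT6C 97.9% identical to KRT6A. Of all 31-base words in KRT6A transcripts, 52.7% also occurred in another gene, against 58.3% for KRT6B and 61.7% for KRT6C. The separate levels of these copies are therefore uncertain. KRT6B was listed at 2.35 TPM in siBACH1, 4.48 TPM in sip53 and 4.64 TPM in siControl, and KRT6C stayed under 1 TPM in every library. The sum of the 3 copies is less affected by how reads were divided among them, and was 449 TPM in siBACH1, 812 TPM in sip53 and 864 TPM in siControl, 1.92-fold lower in siBACH1 than in siControl.

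Simple-epithelial keratins did not share the lower level. KRT8 was at 352 TPM in siBACH1, 420 TPM in sip53 and 345 TPM in siControl. KRT18, its partner, was at 253 TPM in siBACH1, 231 TPM in sip53 and 252 TPM in siControl. Their siBACH1 and siControl values differed by log2 0.03 for KRT8 and 0.01 for KRT18, the smallest differences of any measured keratin in that comparison as listed. After TPM were rescaled to a median ratio of 1, they were 0.11 for KRT8 and 0.09 for KRT18. KRT19 at 0.002 and KRT7 at -0.02 were then smaller. KRT7, a ductal type II keratin, was at 17.9 TPM in siBACH1, 18.7 TPM in sip53 and 19.3 TPM in siControl. KRT19 was at 2.27 TPM in siBACH1, 2.93 TPM in sip53 and 2.40 TPM in siControl. Of the 4 measured simple keratins, 0 passed 1.5-fold in any comparison. The log2 differences of KRT7 (-0.10) and KRT19 (-0.06) between siBACH1 and siControl changed sign under 1 and 2 of 9 alternatives. Those 9 include changes of gene filter and sums with pseudogenes, which left both values as they were.

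KRT10, the suprabasal type I keratin of epidermis, was at 28.0 TPM in siBACH1, 42.7 TPM in sip53 and 42.8 TPM in siControl, while its partner KRT1 was at 0.0339 TPM in siBACH1, 0.307 TPM in sip53 and 0.514 TPM in siControl. KRT10 was therefore expressed with its usual partner under 1 TPM. KRT80, a type II keratin, differed in the other direction, at 36.3 TPM in siBACH1, 35.1 TPM in sip53 and 28.2 TPM in siControl. It was the sole keratin above 10 TPM that was over 1.2-fold higher than siControl in both knockdown libraries, by 1.29-fold in siBACH1 and 1.24-fold in sip53, and it did not pass 1.5-fold in either.

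The hair keratins KRT81 and KRT86 are low, similar type II genes. KRT81 was at 4.92 TPM in siBACH1, 3.05 TPM in sip53 and 2.90 TPM in siControl. KRT86 was at 4.01 TPM in siBACH1, 4.87 TPM in sip53 and 2.63 TPM in siControl. KRT81 was highest in siBACH1 and KRT86 in sip53, but 42.5% of the 31-base words of KRT81 also occurred in KRT86, so how reads were divided between them bears on both values. Summed with KRT83, a further similar copy, they held 8.93 TPM in siBACH1, 7.98 TPM in sip53 and 5.52 TPM in siControl.

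The remaining 38 keratins with a mean under 1 TPM together held 6.17 TPM in siBACH1, 7.39 TPM in sip53 and 7.63 TPM in siControl. They were mostly hair and root sheath genes, and included the corneal keratins KRT3 and KRT12 and the gut keratin KRT20. KRT32, a hair keratin with a mean of 0.973 TPM, was the highest of them. The 9 listed at 0 in every library were KRT12, KRT25, KRT26, KRT28, KRT37, KRT40, KRT71, KRT72 and KRT76.

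Knockdown of p53 was set against the control siRNA in the same way. No stratified keratin passed 1.5-fold. The lowest was KRT14 at log2 -0.37, where 9.39% of all measured genes were at or below it. Among genes with a mean of at least 100 TPM, 3.43% were. Of the 17 measured keratins, 0 were at least 1.5-fold lower, where 2.39% of all measured genes were, and 1 was at least 1.5-fold higher, KRT86, where 1.15% were. The median was -0.02 over the keratins and -0.07 over all measured genes, and the keratin median turned to 0.06 after rescaling. KRT8 was 1.22-fold higher in sip53 than in siControl while KRT18 had a log2 difference of -0.13, which turned to 0.03 after correction for GC content and transcript length. KRT4 and KRT17 differed from siControl by log2 0.07 and 0.02.

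BACH1 knockdown was also set against p53 knockdown, a comparison that shares each library with one above. In siBACH1, 8 of the 17 measured keratins were at least 1.5-fold lower than in sip53, where 2.81% of all measured genes were, and 0 were higher, where 2.35% were. The 8 were the 9 named against siControl without KRT5, which was 1.41-fold lower. KRT4 was 2.35-fold lower and KRT16 2.06-fold lower, and the keratin median was -0.50 against -0.01 over all measured genes.

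The abundant keratins were also read against genes of like abundance. Among the 1255 genes with a mean of at least 100 TPM, a threshold chosen after the values were seen, 1.27% were at least 1.5-fold lower than in siControl, and they numbered 16. Of these 16, 6 were keratins (KRT4, KRT14, KRT6A, KRT13, KRT17 and KRT5), out of 9 keratins at that level. The other 10, from the lowest log2 difference up, were ALDH3A1, CKB, CTSB, BCAM, FABP5, FABP5P7, ATP1B3, CALML3, PPDPF and ATP6V0C. Levels are given for a pair of them, picked after their values were seen. ALDH3A1, an aldehyde dehydrogenase of squamous epithelium, was at 206 TPM in siBACH1, 386 TPM in sip53 and 422 TPM in siControl. CALML3, a calmodulin-like protein of epithelial cells, was at 112 TPM in siBACH1, 130 TPM in sip53 and 174 TPM in siControl. KRT4 had the lowest log2 difference of the 1255 genes and KRT14 the next lowest. KRT15 was at -0.46, and 2.79% of these genes were at or below it.

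**Figure D3:**
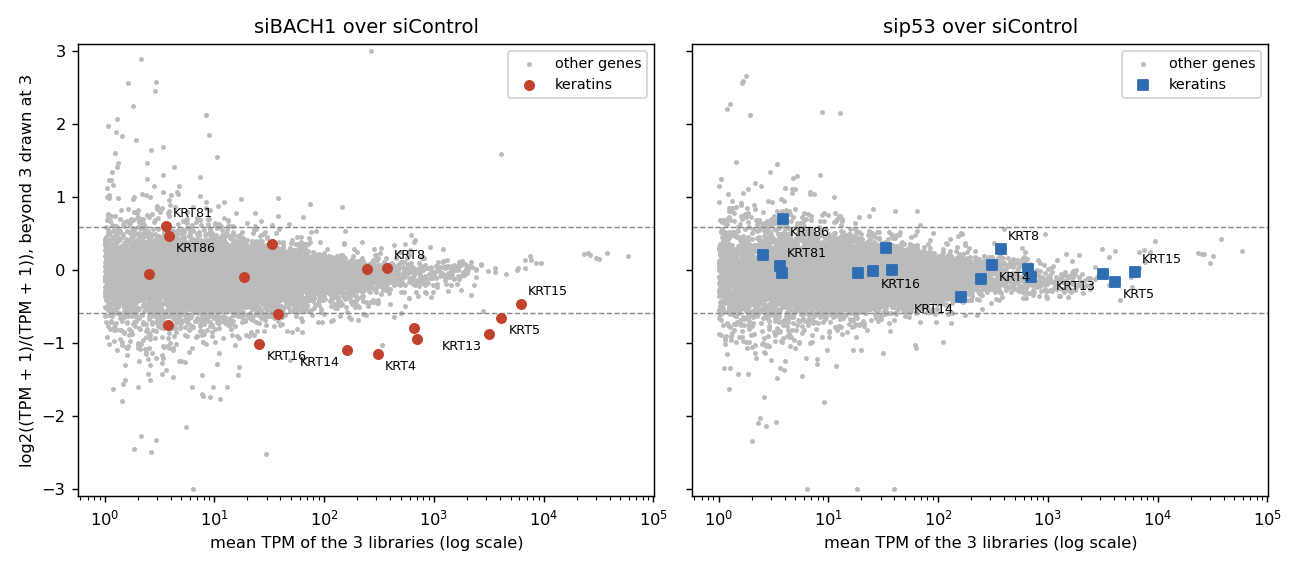
Log2 difference from siControl (vertical axis) against the mean TPM of the 3 libraries (log scale) for 12148 measured genes, siBACH1 on the left and sip53 on the right, with keratins as large symbols, dashed lines at 1.5-fold and values beyond 3 drawn at 3. In siBACH1 the keratins above 100 TPM, other than KRT8, KRT18 and KRT15, lie below the lower dashed line together with 10 other genes of that level, and in sip53 they lie between the dashed lines.

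By class, basal keratins summed to 8149 TPM in siBACH1, 11258 TPM in sip53 and 11922 TPM in siControl. Mucosal suprabasal keratins summed to 2253 TPM in siBACH1, 4068 TPM in sip53 and 4191 TPM in siControl, and activation keratins to 902 TPM in siBACH1, 1611 TPM in sip53 and 1653 TPM in siControl. Simple keratins summed to 625 TPM in siBACH1, 673 TPM in sip53 and 619 TPM in siControl. Relative to siControl, the siBACH1 sum was 0.684 of the level for basal, 0.538 for mucosal suprabasal, 0.546 for activation and 1.01 for simple keratins. The make-up of the keratin pool, which does not depend on scaling between libraries, differed accordingly. Simple keratins were 5.21% of keratin TPM in siBACH1, 3.80% in sip53 and 3.35% in siControl, and mucosal suprabasal keratins were 18.8% in siBACH1, 23.0% in sip53 and 22.7% in siControl.

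**Figure D4:**
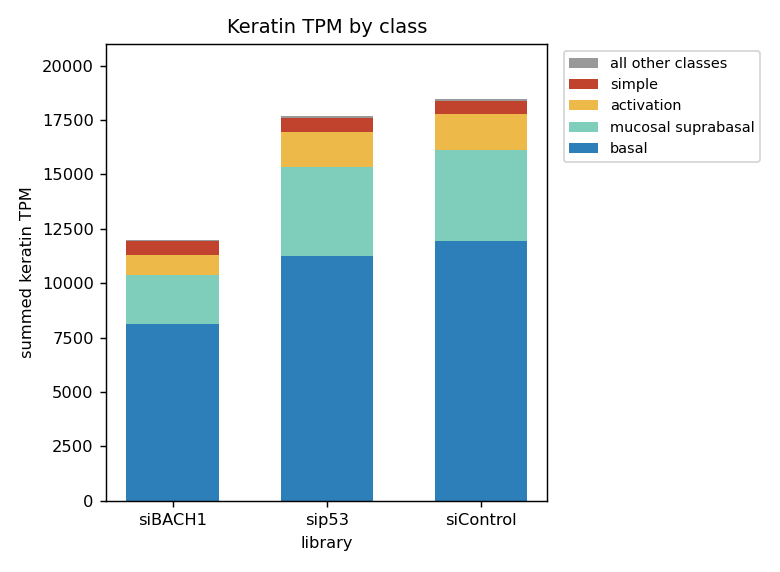
Summed TPM of all 55 keratins (vertical axis) in siBACH1, sip53 and siControl, 1 library each, stacked by class from basal at the bottom to all other classes at the top. The siBACH1 bar reaches 12008 TPM, below 17701 in sip53 and 18468 in siControl, while the simple segment is about as tall in each.

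Type I and type II chains were lower together, so their balance differed little. The ratio of type II to type I keratin TPM was 0.525 in siBACH1, 0.521 in sip53 and 0.545 in siControl. Within partner pairs the ratios differed in both directions. KRT14, the usual type I partner of KRT5, was 0.0323 of KRT5 in siBACH1, 0.0380 in sip53 and 0.0441 in siControl, so it was lowest relative to KRT5 in siBACH1. KRT5 was 0.627 of KRT15 in siBACH1, 0.651 in sip53 and 0.716 in siControl. KRT4 was 0.0793 of KRT13 in siBACH1, 0.106 in sip53 and 0.0968 in siControl. With KRT15 counted beside KRT14 as a basal type I chain, KRT5 was 0.614 of the basal type I sum in siBACH1, 0.636 in sip53 and 0.694 in siControl. KRT8 was 1.39 of KRT18 in siBACH1, 1.82 in sip53 and 1.37 in siControl, so this pair differed most in sip53.

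Keratin genes lie in a pair of clusters, 27 of them on chromosome 12 (52168996 to 52952906) and 28 on chromosome 17 (40654665 to 41624575), positions from RefSeq on GRCh38.p14. KRT18 is the type I gene that lies in the type II cluster, next to KRT8. Along chromosome 17, KRT14, KRT16 and KRT17 are neighbours and had log2 differences of -1.10, -1.01 and -0.79 between siBACH1 and siControl. KRT13, KRT15 and KRT19, also neighbours, had -0.87, -0.46 and -0.06. On chromosome 12 the lower genes KRT6B, KRT6A, KRT5 and KRT4 lie in the interior, and the genes toward the ends, KRT80, KRT7, KRT86 and KRT81 on one side and KRT8 and KRT18 on the other, were not lower by 1.5-fold. Lower and not lower keratins thus occurred in both clusters.

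**Figure D5:**
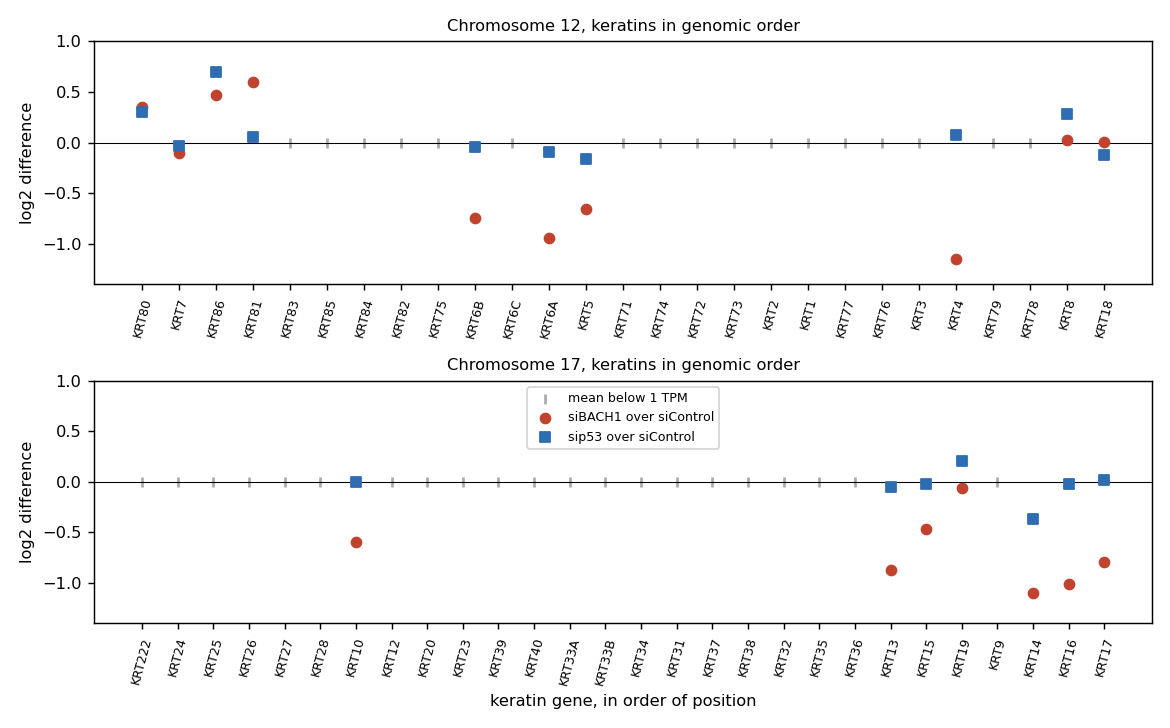
Log2 difference from siControl (vertical axis) of keratins in genomic order (horizontal axis, equal spacing) on chromosome 12 and chromosome 17, for siBACH1 (circles) and sip53 (squares). Ticks at 0 stand for keratins with a mean under 1 TPM, which have no point. The siBACH1 points lie below -0.5 for KRT6B, KRT6A, KRT5 and KRT4 on chromosome 12 and for KRT10, KRT13, KRT14, KRT16 and KRT17 on chromosome 17.

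Sequence shared with other genes bears on how far single keratins can be read. Of the 31-base words in transcripts, 46.1% were shared with another gene for KRT14, 38.1% for KRT16 and 51.5% for KRT18. The share was 30.1% for KRT17, 28.3% for KRT8 and 24.5% for KRT13, against 6.01% for KRT5, 1.68% for KRT15 and 1.57% for KRT4. The annotated spans of KRT8 and KRT18 overlap on opposite strands, and no source used here says how strand was handled. Pseudogenes of KRT8, 51 of them listed, summed to 10.0 TPM in siBACH1, 8.74 TPM in sip53 and 8.24 TPM in siControl. The 6 listed pseudogenes of KRT16 summed to 2.19 TPM in siBACH1, 3.24 TPM in sip53 and 3.61 TPM in siControl. With pseudogenes added to their parent keratins, the lower keratins in siBACH1 against siControl numbered 9 and the higher ones 1. Pseudogenes numbered after a keratin were listed for KRT8, KRT16, KRT17, KRT18 and KRT19 alone, so the other keratins kept their values by construction. Of the lower keratins, the sums therefore covered KRT16 and KRT17. KRT14 shared 23.0% of its words with KRT16P6, a KRT16 pseudogene that was not added to KRT14.

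Genes that work with keratin filaments had medians nearer to that of all measured genes than the keratins had. Of 18 measured filament linkers of desmosomes and hemidesmosomes, 2 were at least 1.5-fold lower in siBACH1 than in siControl and 0 higher, with a median of -0.32, beside 3.2% lower, 1.24% higher and a median of -0.08 over all measured genes. COL17A1, a hemidesmosomal collagen, was at 17.6 TPM in siBACH1, 39.8 TPM in sip53 and 29.1 TPM in siControl, and EPPK1, a plakin that binds keratins, at 7.09 TPM in siBACH1, 8.05 TPM in sip53 and 12.3 TPM in siControl. PKP1, a desmosomal plakophilin, had a log2 difference of -0.58 and PLEC, which links filaments to hemidesmosomes, one of -0.55, neither past 1.5-fold. In sip53, 0 of the 18 passed 1.5-fold against siControl, with a median of -0.05.

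Of 21 measured transcription factors linked to keratin genes, 4 were at least 1.5-fold lower in siBACH1 than in siControl and 0 higher, beside the same 3.2% and 1.24% of all measured genes. They were ZNF750 (-0.79, named after its value was seen), BARX2 (-0.63), GRHL2 (-0.62) and PITX1 (-0.60), and KLF4 at -0.58 did not pass. The list's median was -0.25 in siBACH1 and -0.14 in sip53, where 0 passed 1.5-fold. Of 11 measured genes of filament organisation and turnover, 1 was lower in siBACH1, EPPK1, where 3.2% of all measured genes were, and the median was -0.35. The filament organiser FAM83H had a log2 difference of -0.42 and TRIM29 one of -0.45, neither past 1.5-fold. HSPB1, a small heat shock protein that binds keratins, was at 2167 TPM in siBACH1, 3010 TPM in sip53 and 3202 TPM in siControl. Of 8 measured intermediate filament genes other than keratins, 0 passed 1.5-fold in siBACH1, with a median of -0.25. In sip53, 1 of the 8 was lower than in siControl, where 2.39% of all measured genes were. It was NEFL, a neurofilament gene named after its value was seen, at 2.14 TPM in siBACH1, 1.01 TPM in sip53 and 2.73 TPM in siControl. IFFO2 had a log2 difference of -0.41 between siBACH1 and siControl and the lamin LMNB2 one of -0.15. Among these, the nuclear lamin LMNA was at 302 TPM in siBACH1, 366 TPM in sip53 and 367 TPM in siControl, and LMNB1 at 118 TPM in siBACH1, 115 TPM in sip53 and 117 TPM in siControl.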

How the data were processed

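Messenger RNA libraries were made from total RNA of 3 Cal-33 cultures, 1 per siRNA, per the labels' protocols. The authors deposited 1 table of TPM per gene symbol. The submitters' processing notes name bcl2fastq 2.20, kallisto 0.44.0 and the builds GRCh38, GRCm38 and mm10, with no role for each; the annotation, the summing of transcripts to genes and strand handling are named in no source used here. TPM keep no depth, so depth is unknown and no interval could be given. Every value column was used (0 left out).

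From the deposited TPM, log2((TPM + 1)/(TPM + 1)) was computed for 3 comparisons, which share libraries, over 12148 genes with a mean of at least 1 TPM. With 1 library per group there is no test, and a gene was counted past 1.5-fold on that scale; a fold of levels in the text is the plain TPM ratio. Scripts (Python 3.11.15, pandas 2.3.3) were checked on siControl values with known folds put in and no noise. That check covers the arithmetic of the calls alone. All keratins with a mean of at least 10 TPM were named, and, of each gene list, up to 4 members with the largest differences among those with a mean of at least 5 TPM. Members and lists were chosen with earlier results of these data known. Shared 31-base words and reading frames came from GENCODE 29, and positions and promoters from RefSeq (GRCh38.p14). The level of 1 targeted gene is not reported here. Alternatives were other pseudocounts, filters, thresholds and scalings, sums with pseudogenes and, added after seeing the data, a lowess correction for GC content and transcript length, which 97.6% of measured genes had values for, and the background over genes of at least 100 TPM.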

Additional observations from a re-analysis of the deposited data

How the results depend on the processing

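With 1 library per group, leaving a library out gives no comparison, and replicate spread is unknown. No paired analysis was possible because each group has 1 library and no replicate numbers. Depth is not known from TPM, so differences of keratins near 1 TPM are the least certain.

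The 9 keratins lower in siBACH1 than in siControl numbered 7 with a pseudocount of 5 TPM, after rescaling, without mitochondrially encoded and ribosomal protein genes, and after the GC and length correction, which was chosen after seeing the data, and 8 with a mean of at least 5 TPM. They numbered 3 at a 2-fold threshold and 0 at 3-fold. The 1 higher keratin became 2 with a pseudocount of 0.1 TPM or the GC and length correction, and 0 with a pseudocount of 5 TPM, with a mean of at least 5 TPM, and at 2-fold or 3-fold. The median of -0.60 was -0.46 with a pseudocount of 5 TPM and 0.00 with no filter, where the 38 keratins under 1 TPM enter.

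In sip53 against siControl, the 1 higher keratin became 0 with a pseudocount of 5 TPM, with a mean of at least 5 TPM, and at 2-fold or 3-fold. The median of -0.02 was 0.00 with no filter and turned to 0.055 after rescaling, 0.050 without mitochondrially encoded and ribosomal protein genes, and 0.16 after the GC and length correction.

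In siBACH1 against sip53, the 8 lower keratins numbered 6 with a pseudocount of 5 TPM, 7 after rescaling and 7 with a mean of at least 5 TPM, 1 at 2-fold and 0 at 3-fold, and 0 higher became 1 with a pseudocount of 0.1 TPM and without mitochondrially encoded and ribosomal protein genes. The median of -0.50 was -0.061 with no filter. Without those genes, keratins made up 2.02% of TPM in siBACH1, 2.96% in sip53 and 2.94% in siControl, a larger share by construction. For single keratins, 9 of 153 alternative values in siBACH1 against siControl no longer passed 1.5-fold and 2 newly passed it. Those 153 include changes of gene filter, which leave a keratin's value as it was, and sums for keratins without listed pseudogenes. They also include keratins that had not passed to begin with, so the share is not a measure of how stable the calls are.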
